A study of Mus musculus with 4 samples.

Results

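Toll-like receptors are membrane proteins of innate immunity that bind molecules shared by many microbes, and Myd88 is the adaptor protein that carries the signal of most of them into the cell. The 8 genes described here are 7 receptor genes of the mouse, Tlr1, Tlr2, Tlr3, Tlr4, Tlr6, Tlr7 and Tlr9, and Myd88, out of 18194 genes with a value. They were chosen by name: each probe set whose only gene symbol in the platform annotation was one of these names was taken, which gave 14 probe sets, and the probe set with the highest mean over all arrays is the main value of a gene. The series compared arrays labelled Alox15-/- (2 arrays) with arrays labelled WT (2 arrays). Per the labels, both groups are C57BL/6 mice of 8 weeks, the first carrying the Alox15-/- genotype, which is named for loss of the arachidonate 15-lipoxygenase gene, and no treatment is named for either. The RNA came from bone marrow cells sorted for c-Kit and Sca-1 and against lineage markers, which selects stem cells and multipotent progenitors alike. The labels call the replicates biological but do not say how many animals or pools stand behind an array, so p-values measure the spread between these arrays, which may be partly technical.

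Tlr2 binds bacterial lipopeptides as a pair with Tlr1 or Tlr6, and Tlr4 binds lipopolysaccharide with its partner Ly96. Tlr3, Tlr7 and Tlr9 sit in endosomes, where Tlr3 binds RNA duplexes, Tlr7 single RNA strands and Tlr9 DNA with unmethylated CpG. Receptors other than Tlr3 signal through Myd88, which gathers Irak kinases and leads to NF-kB. Tlr3 uses Ticam1, also called TRIF, and Tlr4 uses both adaptors. Stem and progenitor cells of this gate are known to carry Tlr2, Tlr4 and Myd88, and their ligands are known to push such cells towards myeloid fates in the mouse.

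Values are log2 expression values made by the authors with RMA, and a difference is that of the arrays labelled Alox15-/- minus WT. Precision is limited by the number of arrays. The Alox15 probe set went against the label: it read 10.68 and 10.75 in the arrays labelled Alox15-/- and 4.63 and 4.35 in WT, and it was the only gene past the threshold of 0.05 by limma with Benjamini-Hochberg adjustment (1 of 18194, or 0.0055%, in either direction; adjusted p = 0.00133). Where the probe set lies relative to the deleted part is not known here, and each direction is that of the arrays as labelled. Of the listed stem and progenitor markers, the 6 measured ones (Kit, Cd34, Flt3, Slamf1, Procr and Ptprc) lay above the bacterial controls on every array. Kit is the only one of them that the sort selected for by name. Ly6a, which encodes Sca-1, was not analysed here. The brightest of the 27 control probe sets made from genes of a bacterium, which should carry no mouse signal, read 5.17 and 5.08 in the arrays labelled Alox15-/- and 4.99 and 4.95 in WT. Markers of mature neutrophils and of monocytes were read on all arrays and were lowest in WT replicate 1. Over 9 neutrophil markers the mean level was 7.17 and 6.81 in the arrays labelled Alox15-/- and 5.70 and 6.51 in WT, and over 10 monocyte and macrophage markers it was 6.23 and 5.97 against 5.52 and 5.92. In bulk RNA, a change in the number of cells of a type and a change in RNA per cell cannot be told apart.

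**Figure D1:**
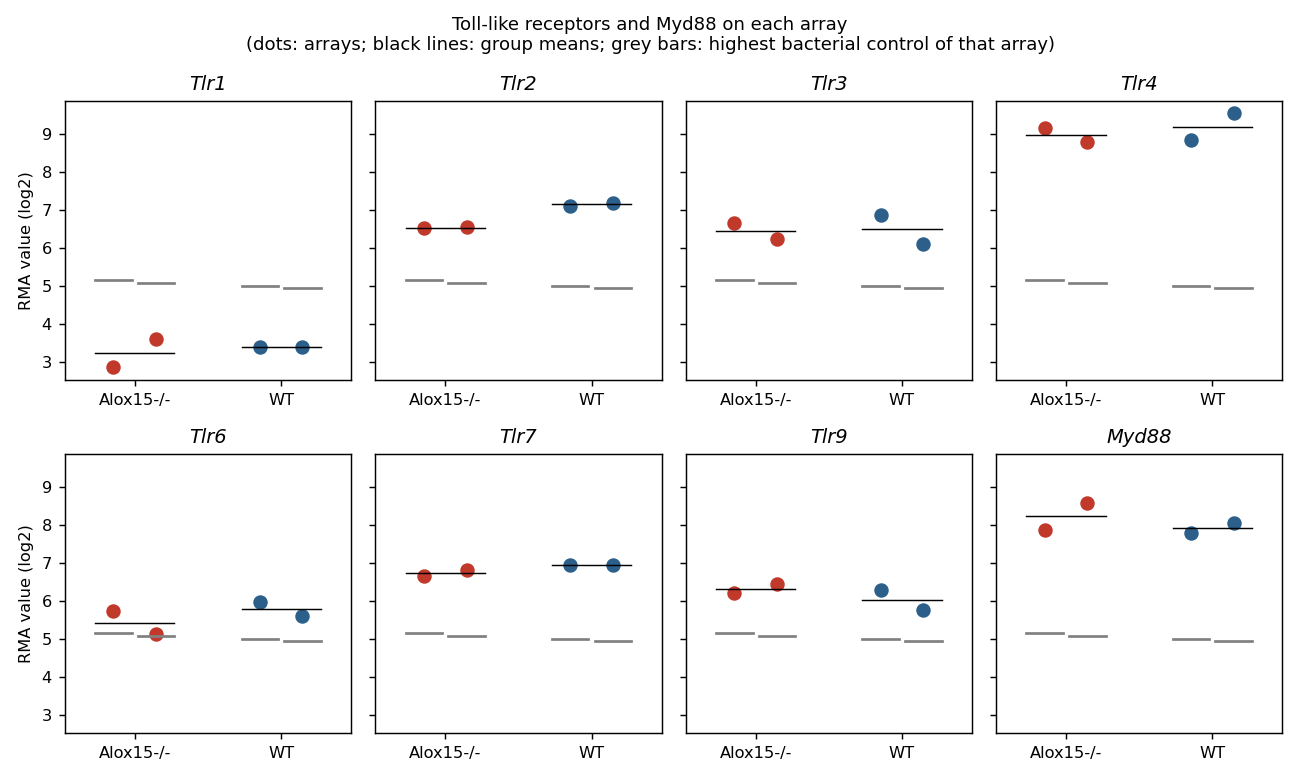
RMA value (log2, vertical axis) of the main probe set of each gene on each array, with arrays labelled Alox15-/- in red on the left and WT arrays in blue on the right; black lines are group means and grey bars the brightest bacterial control of that array. Tlr1 lies below the controls on all 4 arrays, and Tlr2 is the receptor whose groups stand furthest apart relative to the spread within them.

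Tlr2, a receptor for bacterial lipopeptides, read lower on both arrays labelled Alox15-/- than on both WT arrays, but no gene of the 8 passed the threshold over all genes. By limma 0 of the 8 genes passed at an adjusted p of 0.05, and 1, Tlr2, had an unadjusted p under 0.05, against 7.77% of all genes in either direction. Groups did not overlap for 2 of the 8, Tlr2 and Tlr7, both lower in the arrays labelled Alox15-/-. Of all genes, 38.5% were separated in either direction and 17.1% in that direction. At their main probe sets 7 of the 8 lay above the brightest bacterial control on all 4 arrays, and Tlr1 lay below it on all of them, so that the sign of its difference is not read. Of the 7, differences were negative for 5, all of them receptors, and positive for Tlr9 and Myd88, where 46.1% of all genes were negative and 53.7% positive. The median difference was -0.21 over the 7 genes and -0.19 with Tlr1 among them, beside 0.02 over all genes. The genes share arrays, so these counts are not independent of each other.

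Of the receptors for bacterial lipopeptides, Tlr2 is the shared partner. Its only probe set, 1419132_at, read 6.52 and 6.56 in the arrays labelled Alox15-/- and 7.12 and 7.18 in WT. Both arrays labelled Alox15-/- lay below both WT arrays, and the gap between the groups was wider than the gap within either. The means were 6.54 ± 0.03 and 7.15 ± 0.05 (SD, n = 2 each), a difference of -0.61 ± 0.13 (SE, 95% interval -0.93 to -0.29), that is 0.655 of the WT level as labelled. With the labels turned it would be 1.53-fold, since the Alox15 probe set goes against them. The unadjusted limma p was 0.00404 and the adjusted p 0.503. Of all genes, 0.786% had a p as small and 3.40% a difference as large in either direction. With 1 array left out the difference ran from -0.64 to -0.58, and over all alternatives the adjusted p ran from 0.382 to 0.952. The neutrophil and monocyte markers given above were on average higher in the arrays labelled Alox15-/-, opposite to Tlr2, and their part in the Tlr2 value was not tested. The Gapdh control probe sets, whose difference between the 3′ and 5′ end of the transcript is a sign of RNA quality, were also apart without overlap: it was 2.14 and 2.17 in the arrays labelled Alox15-/- and 2.37 and 2.39 in WT. Its part in the Tlr2 value was not tested.

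Tlr1 and Tlr6, the partners of Tlr2, are neighbouring genes on chromosome 5 and have 1 probe set each. Tlr1 read 2.87 and 3.60 in the arrays labelled Alox15-/- and 3.41 and 3.40 in WT, below the bacterial controls throughout. No fold is given for it; the difference as fitted, -0.17 (limma adjusted p = 0.903), was 0.20 without Alox15-/- replicate 1. Tlr6 read 5.75 and 5.12 in the arrays labelled Alox15-/- and 5.98 and 5.60 in WT. The groups overlapped, and Alox15-/- replicate 2 was barely above the brightest control of its array, 5.08. The difference of -0.36 ± 0.26 (SE, 95% interval -1.001 to 0.29; limma adjusted p = 0.770) was -0.04 without that array, and -0.67 without Alox15-/- replicate 1.

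The lipopolysaccharide receptor gene Tlr4 has 4 probe sets, and those above the controls all had negative differences. The main one, 1418162_at, read 9.16 and 8.80 in the arrays labelled Alox15-/- and 8.84 and 9.54 in WT. These groups overlapped, and the WT arrays lay further apart than the group means did. The difference was -0.21 ± 0.27 (SE, 95% interval -0.90 to 0.47; limma adjusted p = 0.880), with 0.14 without WT replicate 2 and -0.57 without WT replicate 1. Probe set 1418163_at read 7.27 and 7.83 in the arrays labelled Alox15-/- and 7.98 and 7.96 in WT, a difference of -0.42. Probe set 1442827_at read 6.46 and 6.80 in the arrays labelled Alox15-/- and 6.99 and 7.05 in WT, a difference of -0.39. In both of these the groups did not overlap, although neither passed when all named probe sets were tested (limma adjusted p = 0.697 and 0.671). The fourth, 1430695_at, had a difference of 0.49 but lay below the bacterial controls on every array.

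**Figure D2:**
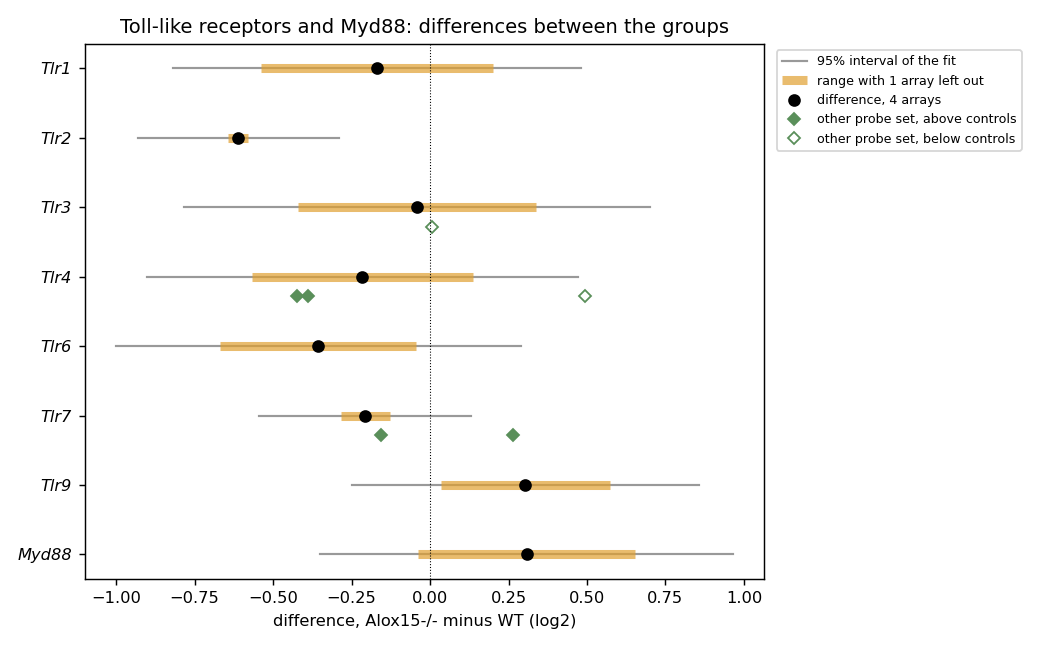
Difference of each gene (log2, arrays labelled Alox15-/- minus WT; horizontal axis) with the 95% interval of the limma fit (grey), the range when 1 array is left out (orange) and the other probe sets of the gene (green diamonds, open where below the bacterial controls). Tlr2 is the gene whose interval, -0.93 to -0.29, leaves out 0, and the range of Tlr1, Tlr3, Tlr4 and Myd88 spans 0.

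Among the endosomal receptors, Tlr3 was read by 1422782_s_at, a probe set whose suffix marks probes that may match more than 1 transcript. It read 6.67 and 6.24 in the arrays labelled Alox15-/- and 6.88 and 6.12 in WT. The replicates of each group lay further apart than the groups, whose difference was -0.04 ± 0.29 (SE, 95% interval -0.78 to 0.70; limma adjusted p = 0.981). Without WT replicate 1 it was 0.34, without Alox15-/- replicate 2 it was 0.17 and without WT replicate 2 it was -0.42. The second probe set, 1422781_at, read 2.37 and 2.64 in the arrays labelled Alox15-/- and 2.57 and 2.43 in WT, below the bacterial controls.

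Tlr7, on the X chromosome, had probe sets that went opposite ways. The main one, 1419848_x_at, read 6.66 and 6.81 in the arrays labelled Alox15-/- and 6.94 and 6.94 in WT. The groups did not overlap, with a difference of -0.21 ± 0.13 (SE, 95% interval -0.54 to 0.13; limma adjusted p = 0.749). Its suffix marks probes that may also bind other transcripts. Probe set 1449640_at, annotated to the same source transcript, read 6.49 and 6.72 in the arrays labelled Alox15-/- and 6.75 and 6.77 in WT, a difference of -0.16. Probe set 1422010_at read 6.31 and 6.87 in the arrays labelled Alox15-/- and 6.03 and 6.63 in WT, a difference of 0.26 with groups that overlapped. The mean over the 3 probe sets gave -0.03, so the separation at the main one was not shared by all probe sets of the gene.

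Tlr9, on chromosome 9 as is Myd88, was the receptor with a positive difference. Its probe set 1422083_at read 6.21 and 6.45 in the arrays labelled Alox15-/- and 6.30 and 5.76 in WT. WT replicate 2 was the low array and the groups overlapped. The difference was 0.30 ± 0.22 (SE, 95% interval -0.25 to 0.86; limma adjusted p = 0.772), with 0.03 without WT replicate 2 and 0.57 without WT replicate 1.

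Myd88, the adaptor, was above the controls on every array and had an unsettled direction. Its probe set 1419272_at read 7.88 and 8.57 in the arrays labelled Alox15-/- and 7.78 and 8.06 in WT. Alox15-/- replicate 2 stood above the other arrays, and the groups overlapped. The difference was 0.31 ± 0.26 (SE, 95% interval -0.35 to 0.96; limma adjusted p = 0.808), with -0.04 without that array and 0.65 without Alox15-/- replicate 1. The intervals of Tlr4 and Myd88 allow changes of close to 1 on the log2 scale in 1 direction, so a missing call does not show equal levels.

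RefSeq promoter windows of build GRCm38.p6, from 250 bases before to 50 bases after a gene's start, were at hand for 6 of the 8 genes, in 8 windows, and not for Tlr4 and Tlr7. The windows of Tlr2 (chr3:83841559-83841858, minus strand) and Myd88 (chr9:119339969-119340268, minus strand) are printed because Tlr2 had the smallest p and Myd88 is the adaptor it signals through. Capitals mark matches, on either strand, to the GC box GGGCGG, and in Myd88 also to the interferon response element core GAAANNGAA.
Tlr2: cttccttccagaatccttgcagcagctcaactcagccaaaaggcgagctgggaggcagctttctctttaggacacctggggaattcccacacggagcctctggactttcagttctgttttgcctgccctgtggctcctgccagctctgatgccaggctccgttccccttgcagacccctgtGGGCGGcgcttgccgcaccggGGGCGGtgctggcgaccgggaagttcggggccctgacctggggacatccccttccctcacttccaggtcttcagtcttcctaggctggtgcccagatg
Myd88: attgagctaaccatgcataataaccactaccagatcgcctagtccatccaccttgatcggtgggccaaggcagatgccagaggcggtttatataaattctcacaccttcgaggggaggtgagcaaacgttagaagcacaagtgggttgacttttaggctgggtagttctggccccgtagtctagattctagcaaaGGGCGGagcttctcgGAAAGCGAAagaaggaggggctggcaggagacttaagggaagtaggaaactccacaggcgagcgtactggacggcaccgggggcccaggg
The GC box was found in 3 of the 8 windows, those of Tlr2, Tlr3 and Myd88, and in 35.7% of all 32851 windows. The interferon response element core was found in 2 of the 8, 1 of Tlr6 and that of Myd88, against 8.56% of all windows. GGGANTTTC, a stretch of the NF-kB motif, was found in the Tlr3 window (1.11% of all windows). Other forms of that motif were not searched for, so lower case in the printed windows does not show that they are absent. The PU.1 motif GAGGAAGT was found in 1 window each of Tlr1 and Tlr9 (3.20%). A match is a string of letters in a window and was not set against the expression values.

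The rest of the pathway was read through 9 lists of 97 genes, of which 89 were measured. Each gene was read at its brightest probe set, and the other probe sets that several of them have are not given. By limma 0 of the 89 passed the threshold over all genes. At an unadjusted p under 0.05, 8 were higher and 2 lower in the arrays labelled Alox15-/-, where all genes gave 4.2% higher and 3.57% lower. The groups were apart, with no overlap, for 24 higher and 12 lower genes of the lists, beside 21.4% and 17.1% of all genes. The median difference over the 89 genes was 0.015, beside 0.019 over all genes.

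**Figure D3:**
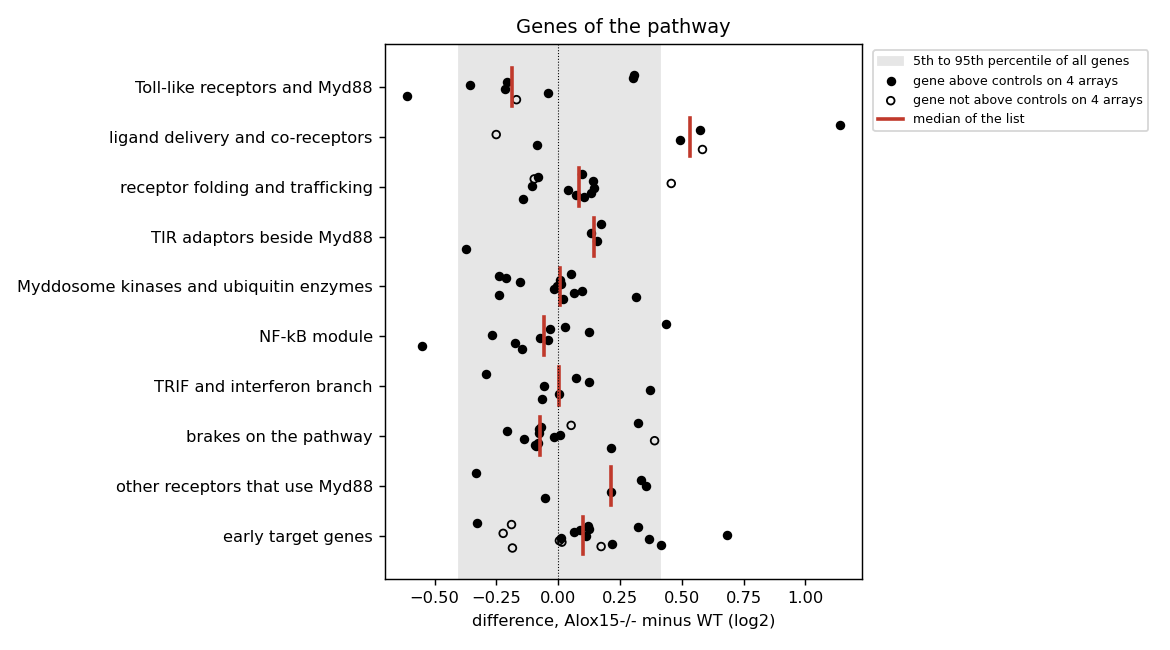
Difference of each gene of the pathway (log2, arrays labelled Alox15-/- minus WT; horizontal axis) by list, filled where the gene was above the bacterial controls on all 4 arrays, with the list's median in red and the 5th to 95th percentile of all genes shaded (-0.40 to 0.41). The co-receptor list has the highest median, 0.53, and the median of the Toll-like receptors and Myd88, -0.19, is the lowest.

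Of the 6 measured genes of ligand delivery and co-receptors, 3 had an unadjusted p under 0.05, each with a positive difference and groups that did not overlap. Of all genes, 4.2% were higher at that p and 21.4% higher without overlap. The median difference of the 6 was 0.53. Cd36 was lower without overlap (-0.25) but below the bacterial controls on all arrays. Cd14 differed by 0.58 with groups that overlapped, and was above the controls on 1 array. The 3 include Cd180, a receptor related to Tlr4 that lacks its signalling domain, and Ly86, the protein that binds Cd180 as Ly96 binds Tlr4. Ly86 read 7.50 and 7.29 in the arrays labelled Alox15-/- and 5.83 and 6.68 in WT, a difference of 1.14 ± 0.29 (SE; limma adjusted p = 0.575). Cd180 read 7.75 and 7.62 in the arrays labelled Alox15-/- and 6.90 and 7.33 in WT, a difference of 0.57 ± 0.19 (SE; limma adjusted p = 0.618). In both genes WT replicate 1, the array with the lowest neutrophil, monocyte and B cell marker levels, was also the lowest. The part of those cells in the Ly86 and Cd180 values was not tested. Lbp, which passes lipopolysaccharide to the receptor, differed by 0.49 (limma adjusted p = 0.630). Ly96 itself read 6.13 and 6.48 in the arrays labelled Alox15-/- and 6.45 and 6.33 in WT, groups that overlapped.

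Among the 4 measured TIR adaptors beside Myd88, Tirap, which brings Myd88 to Tlr2 and Tlr4 at the membrane, read 6.41 and 6.35 in the arrays labelled Alox15-/- and 6.73 and 6.77 in WT. Both arrays labelled Alox15-/- lay below both WT arrays, as for Tlr2, with a difference of -0.37 ± 0.13 (SE; limma adjusted p = 0.627). These values are from the brighter of the 2 Tirap probe sets. Pik3ap1, which links the receptors to PI3-kinase, differed by 0.17, and Ticam1, an adaptor of Tlr3 and Tlr4, by 0.16 with groups that overlapped. In the 13 measured kinases and ubiquitin enzymes downstream of Myd88 0 had an unadjusted p under 0.05 and the median difference was 0.01. Those with the largest moderated t above the controls were the ubiquitin ligase genes Birc2 at -0.24, Peli2 at -0.21 and Traf6 at -0.24.

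Of the 10 measured genes of the NF-kB module, 7 had negative and 3 positive differences, with a median of -0.06. Ikbkg, the regulatory subunit of the IkB kinase, read 8.69 and 8.998 in the arrays labelled Alox15-/- and 9.54 and 9.25 in WT, a difference of -0.55 (limma adjusted p = 0.618). Map3k8, a kinase that passes the signal to ERK, differed by 0.44 (limma adjusted p = 0.634), and Relb, an NF-kB subunit, by -0.27 with groups that overlapped. The 7 measured genes of the TRIF and interferon branch had a median of 0.00. Tank, a scaffold of the Tbk1 kinase, differed by 0.37, Azi2, another such scaffold, by -0.29, and the transcription factor gene Irf5 by 0.13. Receptor folding and trafficking, with 12 genes, had a median of 0.08 and 0 genes with an unadjusted p under 0.05. Unc93b1, which carries Tlr3, Tlr7 and Tlr9 to endosomes, differed by -0.14, Rab10, which takes Tlr4 to the surface, by 0.14, and Cnpy4 by 0.13.

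The 14 measured brakes on the pathway had 5 positive and 9 negative differences and a median of -0.07. Bcl3, a nuclear IkB protein, differed by 0.32, the RNase gene Zc3h12a by -0.21 and the deubiquitinase gene Cyld by -0.14. Of the 5 other receptors that use Myd88, those of interleukin-18 had positive differences, Il18r1 at 0.35 (limma adjusted p = 0.630) and Il18rap at 0.33, while Il1rl2 was at -0.33. The groups did not overlap for any of these 3 genes. Among the 5, 3 were higher and 1 lower without overlap, beside 21.4% and 17.1% of all genes. Early target genes of the receptors had positive differences in 14 of 18, beside 53.7% of all genes, with a median of 0.10, and 4 of the 18, Il6, Cxcl2, Ptgs2 and Ifnb1, lay below the bacterial controls on all arrays. Il1b read 5.67 and 5.97 in the arrays labelled Alox15-/- and 5.37 and 5.43 in WT, a difference of 0.42 ± 0.16 (SE; limma adjusted p = 0.633). WT replicate 1 was the lowest array for Il1b, but close to WT replicate 2. It was also the lowest for the mean of the neutrophil markers (5.70 against 6.51 in WT replicate 2) and of the monocyte markers (5.52 against 5.92), where the WT arrays lay further apart. These markers also had mostly positive differences, and their part in the target genes was not tested. Gadd45b, a stress gene, differed by 0.32 and Marcksl1, a relative of the kinase substrate gene Marcks, by -0.33. Tnf, the cytokine most used to read the pathway, was at 5.13 and 5.19 in the arrays labelled Alox15-/- and 5.17 and 5.52 in WT, close to the brightest control.

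**Figure D4:**
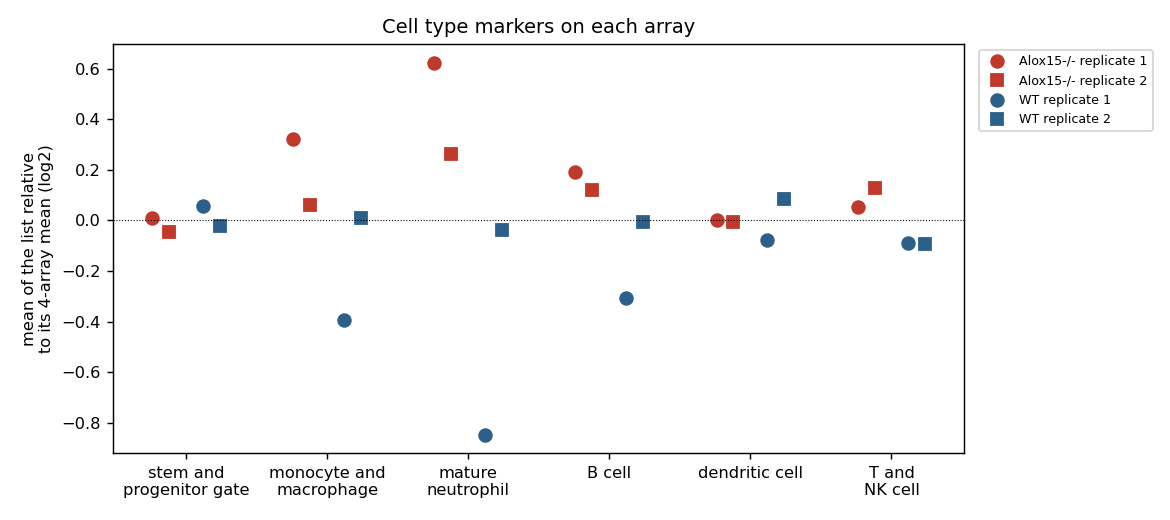
Mean level of each list of cell type markers on each array, relative to the list's mean over the 4 arrays (log2, vertical axis), with arrays labelled Alox15-/- in red and WT arrays in blue, circles for replicate 1 and squares for replicate 2. Neutrophil markers span -0.85 in WT replicate 1 to 0.62 in Alox15-/- replicate 1. The mean of the stem and progenitor markers stays between -0.05 and 0.06, and of these only Kit was selected for by name in the sort. Single stem and progenitor markers moved in opposite directions within that mean. Groups did not overlap for 1 higher marker, Slamf1 (0.32), and 3 lower ones, Kit (-0.27), Procr (-0.25) and Ptprc (-0.04). Of all genes, 21.4% were higher and 17.1% lower without overlap.

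Other cell types that carry these receptors differ in how their markers ran across the arrays. All 9 measured neutrophil markers had positive differences, as did 53.7% of all genes. An unadjusted limma p under 0.05 was found for 4 of them, S100a8, S100a9, Ltf and Mmp8, where 4.2% of all genes were higher at that p. Of these 4, Mmp8 lay below the bacterial controls on all arrays, the only one of the 9 to do so. Lcn2 was above the controls on 2 arrays. Of 10 monocyte and macrophage markers 8 had positive differences, with Adgre1, a defining surface marker of mouse macrophages, and Ms4a7 below the controls on all arrays. C1qb, a macrophage complement gene, read 9.53 and 6.22 in the arrays labelled Alox15-/- and 4.92 and 7.55 in WT, a spread within groups wider than that of any of the 8 genes. Its values weigh heavily on the mean of the 10 monocyte and macrophage markers, of which 5 lay above the controls on all arrays. B cell markers averaged 6.38 and 6.31 in the arrays labelled Alox15-/- and 5.88 and 6.18 in WT over 7 genes, with Ms4a1 below the controls. Dendritic cell markers averaged 5.67 and 5.66 in the arrays labelled Alox15-/- and 5.59 and 5.75 in WT, with Xcr1 and Cd209a below the controls. T and NK cell markers averaged 5.45 and 5.53 in the arrays labelled Alox15-/- and 5.31 and 5.31 in WT, with Cd3e, Cd3g and Ncr1 below the controls. The part of these cell types in the values of the 8 genes was not tested.

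The genes most like Tlr2 and Myd88 over the 4 arrays were found by the root mean square distance between profiles centred on their own means. For Tlr2, among 6812 genes above the controls and with enough range, these were Fam107b at a distance of 0.02, Pitpnm2 at 0.02 and Mki67, the proliferation marker, at 0.03. Mki67 read 11.82 and 11.80 in the arrays labelled Alox15-/- and 12.38 and 12.50 in WT, a difference of -0.63. For Myd88, among 5420 such genes, they were Bloc1s4 at 0.02, the transcription factor gene Bach2 at 0.03 and the laminin gene Lamc1 at 0.05. The likeness rests on 4 arrays and many candidates and is a description.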

How the data were processed

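RNA of sorted bone marrow cells was measured on 4 Affymetrix arrays. The authors deposited log2 values, made with Affymetrix Expression Console 1.1 and RMA, per the submitters' processing notes; RMA corrects background, quantile-normalizes and summarises each probe set. The labels' protocols describe a kit that labels sense targets, while the probe set names belong to a design for antisense targets; which of them applies was not settled. Of 45101 probe sets, 34958 had 1 gene symbol in the platform annotation, and the brightest per gene was used for 18194 genes with no filter on dim genes. All 8 genes matched the RefSeq gene table by gene identifier. Of the listed genes, 16 were not analysed here.

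Groups came from the titles. The comparison was fitted over all genes in R 4.3.3 with the lmFit and eBayes functions of limma 3.58.1, without a block, as a two-sided test with Benjamini-Hochberg adjustment. In simulated data for this comparison limma recovered 24 of 67 genes changed by 1, 62 of 67 changed by 2 and 65 of 66 changed by 4 on the log2 scale, with 6 false calls. Simulated errors were normal, with variances drawn from the prior that limma fitted to these data. Recovery depends on that setting and on how many genes were changed, so it is not the power of the real comparison. Named genes are all 8 genes at every probe set, Alox15, the 3 genes of each pathway list with the largest absolute moderated t among those above the bacterial controls, and the 3 nearest profiles to Myd88 and to the receptor gene with the largest difference; marker genes and others given for context (Ly96, Tnf, C1qb) were chosen after their values were seen. The 8 genes and all lists were chosen with earlier results of these data known. Promoter windows came from RefSeq, and motifs were chosen after the expression values were seen.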

Additional observations from a re-analysis of the deposited data

How the results depend on the processing

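With 2 arrays a group, every fit has few degrees of freedom. None of the 8 genes passed the threshold in any of 15 other settings in which it was tested or at an adjusted p of 0.10, and all kept the sign of their difference except as follows. With 1 array left out Tlr1 ran from -0.54 to 0.20, Tlr3 from -0.42 to 0.34, Tlr4 from -0.57 to 0.14 and Myd88 from -0.039 to 0.65; Tlr3 was also reversed at 0.17 without Alox15-/- replicate 2. The median difference of the 8 genes was -0.083 with the mean of all probe sets of a gene, and ran from -0.19 to -0.041 with 1 array left out. It was 0.046 without the lowest 50 percent of genes, which leaves Tlr4 and Myd88. The number of genes past the threshold was 22 with a mean-dependent prior variance, 2 when every named probe set was tested, and 0 with any 1 array left out, where a lone array is assumed to vary like the other group and 885 to 1584 genes had an unadjusted p under 0.05. Without variance moderation it was 1, Rac2 in place of Alox15. The number of the 8 genes above the bacterial controls was 5 when the control was raised by 1 and 6 with the mean of all probe sets. The replicate numbers in the titles do not state a pairing, and deviations of same-numbered arrays from their group means had r = -0.02 across 18194 genes, which are not independent. The replicate block gave 1 gene past the threshold, Alox15, and 0 of the 8. The causes of these shifts were not tested. Tlr1, below the controls throughout, allows no reading of a difference.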

Other observations

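The arrays also read other mouse Toll-like receptor genes, looked up after the values above were seen. Tlr12, which in the mouse recognises a profilin of protozoa, had a difference of 0.81 ± 0.27 (SE; limma adjusted p = 0.627) at probe set 1438329_at, which read 8.48 and 7.70 in the arrays labelled Alox15-/- and 7.35 and 7.21 in WT. Both arrays labelled Alox15-/- lay above both WT arrays there. Its other probe set, 1437931_at, gave -0.05, with 5.78 and 5.61 in the arrays labelled Alox15-/- and 5.88 and 5.62 in WT. Tlr5, the flagellin receptor gene, read 5.005 and 4.87 in the arrays labelled Alox15-/- and 4.75 and 4.28 in WT. Tlr5, Tlr8 and Tlr13 lay below the brightest bacterial control on all 4 arrays, and each had 1 probe set.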
